A study of Mus musculus with 10 samples.

Results

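Transcripts of 31 genes of the secretory granule and of regulated exocytosis were examined in mouse pancreatic islets. The genes were taken by symbol from a table of 24475 genes and comprise 5 granins, 3 granule membrane or matrix proteins, 8 genes of the SNARE fusion machinery including its recycling ATPase, 5 synaptotagmins, 5 priming or clamping factors, and 5 Rab GTPases or their effectors. All 31 symbols were found, and all 31 passed the filter on low values that 13450 of the 24475 genes passed. The islets came from C57BL/6 mice treated with REGN1193, a blocking antibody to the glucagon receptor (libraries 1 to 5), or from C57BL/6 mice treated with an isotype control antibody (libraries 6 to 10). The study as titled concerns the alpha cell hyperplasia that follows inhibition of this receptor. The labels give no dose, duration, sex or age, and do not state whether libraries are separate animals, so every p-value measures only the spread between these libraries.

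Islet endocrine cells package their hormones with granins in dense-core granules. A granule docks at the plasma membrane with the help of Rab GTPases and their effectors, is primed by Munc13, CAPS and RIM proteins, and fuses when a vesicle SNARE zips together with the target membrane SNAREs. Synaptotagmins and complexins tie that last step to calcium, and Nsf afterwards takes the SNARE complex apart. Alpha, beta, delta and pancreatic polypeptide cells all use this machinery. In RNA from whole islets each gene's level is thus a sum over these and any other cell types present. In such bulk RNA, fewer cells of a type and less RNA per cell cannot be told apart.

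The libraries carried the hormone transcripts of islets in every case. Gcg, which encodes proglucagon, ran from 50503 to 76928 RPKM (reads per kilobase of transcript, scaled by library size) in antibody libraries and from 9513 to 17038 RPKM in isotype libraries. By limma it rose by 2.39 on the log2 scale (SE 0.27, adjusted p = 0.00174). Ins2, one of the mouse insulin genes, ran from 143596 to 238545 RPKM under REGN1193 and from 185966 to 340231 RPKM under isotype antibody, a log2 fold change of -0.45 that was not called (SE 0.37, limma adjusted p = 0.863). Ins1 averaged 62575 ± 17072 RPKM in antibody libraries and 93014 ± 11335 RPKM in isotype libraries (SD, n = 5 each). Of 12 tested alpha cell markers 8 were called higher, and the list summed to between 55268 and 84339 RPKM in antibody libraries and between 10271 and 18245 RPKM in isotype libraries. All 12 beta cell markers had negative log2 fold changes, none called, with sums from 199314 to 356581 RPKM in antibody libraries and from 298786 to 472840 RPKM in isotype libraries. The 3 pancreatic polypeptide cell markers and the 5 delta cell markers all had positive log2 fold changes, none called (delta cell sums of 3703 to 9713 RPKM under REGN1193, 2049 to 4971 RPKM under isotype antibody). No marker list of the other cell types (acinar, ductal, endothelial, stromal, leukocyte, Schwann cell or neuron) had a called member, and their summed levels overlapped between groups. Signs were not alike over these lists. Positive log2 fold changes occurred in 1 of 14 tested acinar markers (median -0.57) and 1 of 8 endothelial markers. They occurred in 7 of 8 stromal, 5 of 8 ductal, 5 of 7 leukocyte and 2 of 6 Schwann cell or neuron markers. Of 9 Schwann cell and neuron markers 6 passed the filter, with sums of 28.5 to 41.2 RPKM under REGN1193 and 24.96 to 48.4 RPKM under isotype antibody. Acinar sums were the largest of these lists, at 4223 to 13734 RPKM under REGN1193 and 3173 to 18513 RPKM under isotype antibody. Depth, estimated from the steps between the lowest values, was 14.4 to 17.9 megareads in antibody libraries and 12.3 to 14.7 megareads in isotype libraries (exact permutation p = 0.0476). The part of cell type and of depth in the differences given below was not tested.

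None of the 31 genes was called higher or lower under REGN1193. Across all tested genes 0.394% were called higher and 0.0149% lower, 0.409% in either direction, by limma with Benjamini-Hochberg adjustment at a threshold of 0.05. The limma adjusted p of the 31 genes ran from 0.495 to 0.991. At an unadjusted limma p under 0.05, 4 genes were higher (Sytl2, Scg3, Chgb and Vgf) and 0 were lower, which is 12.9% of 31 beside 7.02% of all tested genes, of which 2.84% were higher and 4.18% lower. Positive log2 fold changes occurred in 19 of the 31 genes, beside 33.5% of all tested genes. After median centring they occurred in 23 of 31, beside 53.2% of all tested genes in that fit. With array weights the count was 14 of 31, beside 35.6%, and without isotype library 6 it was 15 of 31, beside 31.2%. The median log2 fold change was 0.04 for the 31 genes and -0.07 for all tested genes. That of the 31 genes was 0.12 after median centring, which moved the median of all genes to 0.01. It was 0.0087 when each library was rescaled without the 10 genes of highest mean level, a setting that moved the median of all genes to -0.10.

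The intervals show how large a difference these libraries leave room for. In 22 of the 31 genes the 95% interval of limma lay within a 1.5-fold change in either direction, and in 28 within 2-fold. Over all tested genes the shares were 68.2% and 91.3%. Vgf, Chgb and Sytl2 were the 3 genes whose interval reached past 2-fold, each on the upper side. A missing call in the other 28 is not evidence that they were equal between groups.

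**Figure D1:**
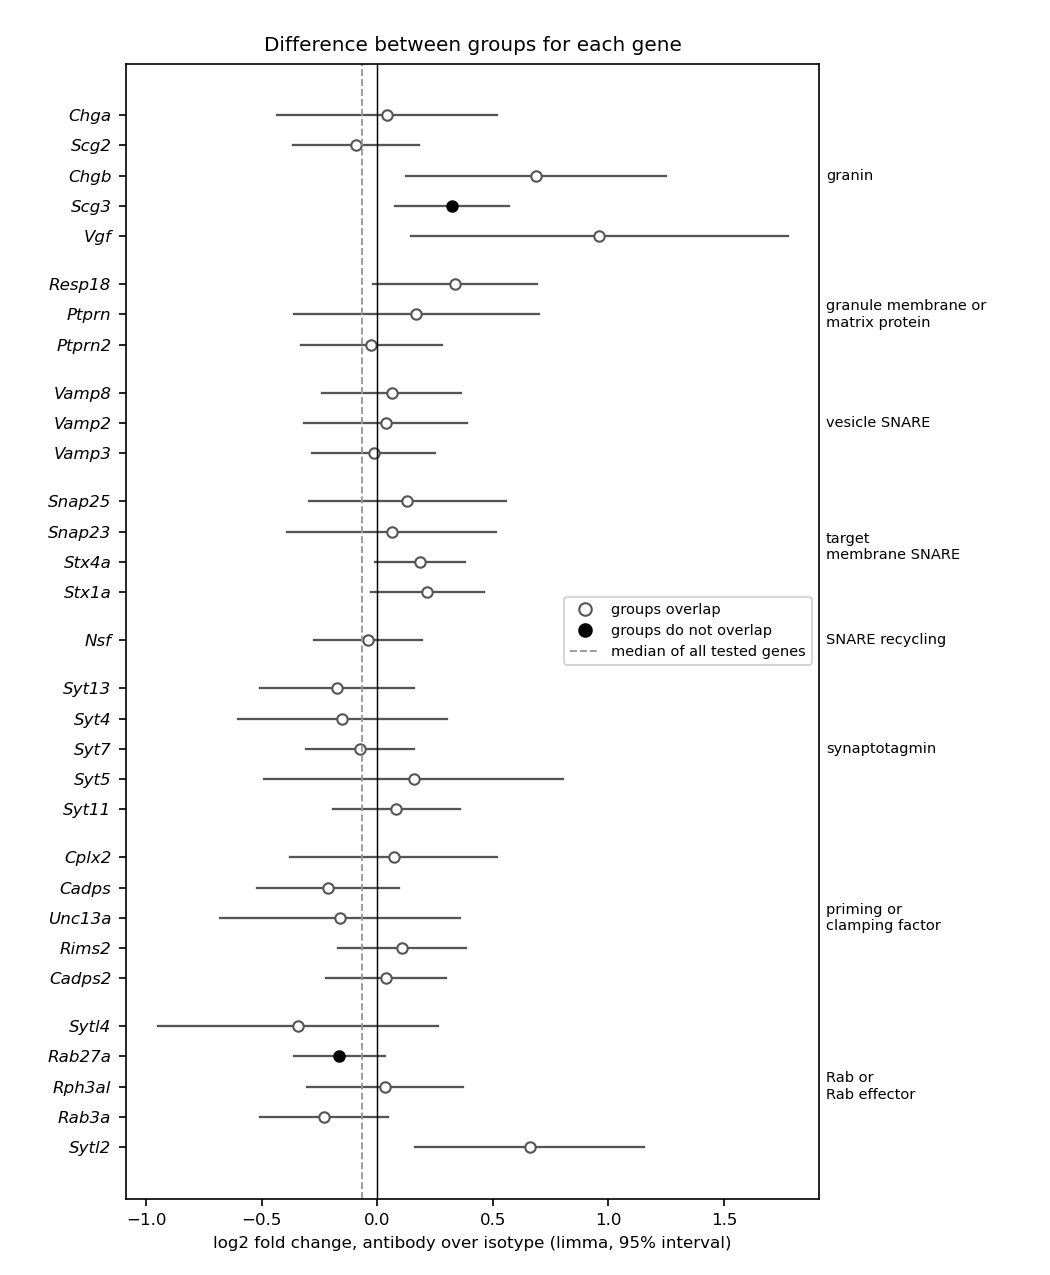
Log2 fold change of each gene, antibody over isotype, with the 95% interval of limma (horizontal axis, log2 scale). Filled points are Scg3 and Rab27a, whose groups did not overlap, and the dashed line is the median of all tested genes at -0.07. The intervals of Chgb, Scg3, Vgf and Sytl2 lie above 0, before any adjustment for the number of genes.

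Levels spanned 3 orders of magnitude. Averaged over the 10 libraries, Chga stood highest at 3877 RPKM and Sytl2 lowest at 3.08 RPKM, with a median over the 31 genes of 60.0 RPKM beside 7.75 RPKM over all tested genes. Above 1000 RPKM were 4 genes, all of them granule cargo or matrix proteins, and 10 were above 100 RPKM. Between 10 and 100 RPKM lay 17 genes, and 4 (Rims2, Stx1a, Cadps2 and Sytl2) were below 10 RPKM. RPKM is scaled by transcript length, so these levels can be ranked between genes. The ranking rests on the transcript lengths used, whose annotation is not given in the sources used here. Chga exceeded Scg2 in all 10 libraries, Resp18 exceeded Scg3 in all 10, and Scg3 exceeded Ptprn in all 10. Scg2 exceeded Chgb in 3 of 5 antibody libraries and in 5 of 5 isotype libraries, and Chgb exceeded Resp18 in 5 of 5 antibody libraries and 3 of 5 isotype libraries. Over the whole ranking, 6 of 30 neighbouring pairs kept their order in all 10 libraries and 24 did not. Of these 24 pairs, 10 kept it in 8 or 9 libraries and 14 in 7 or fewer. These orders were not tested.

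**Figure D2:**
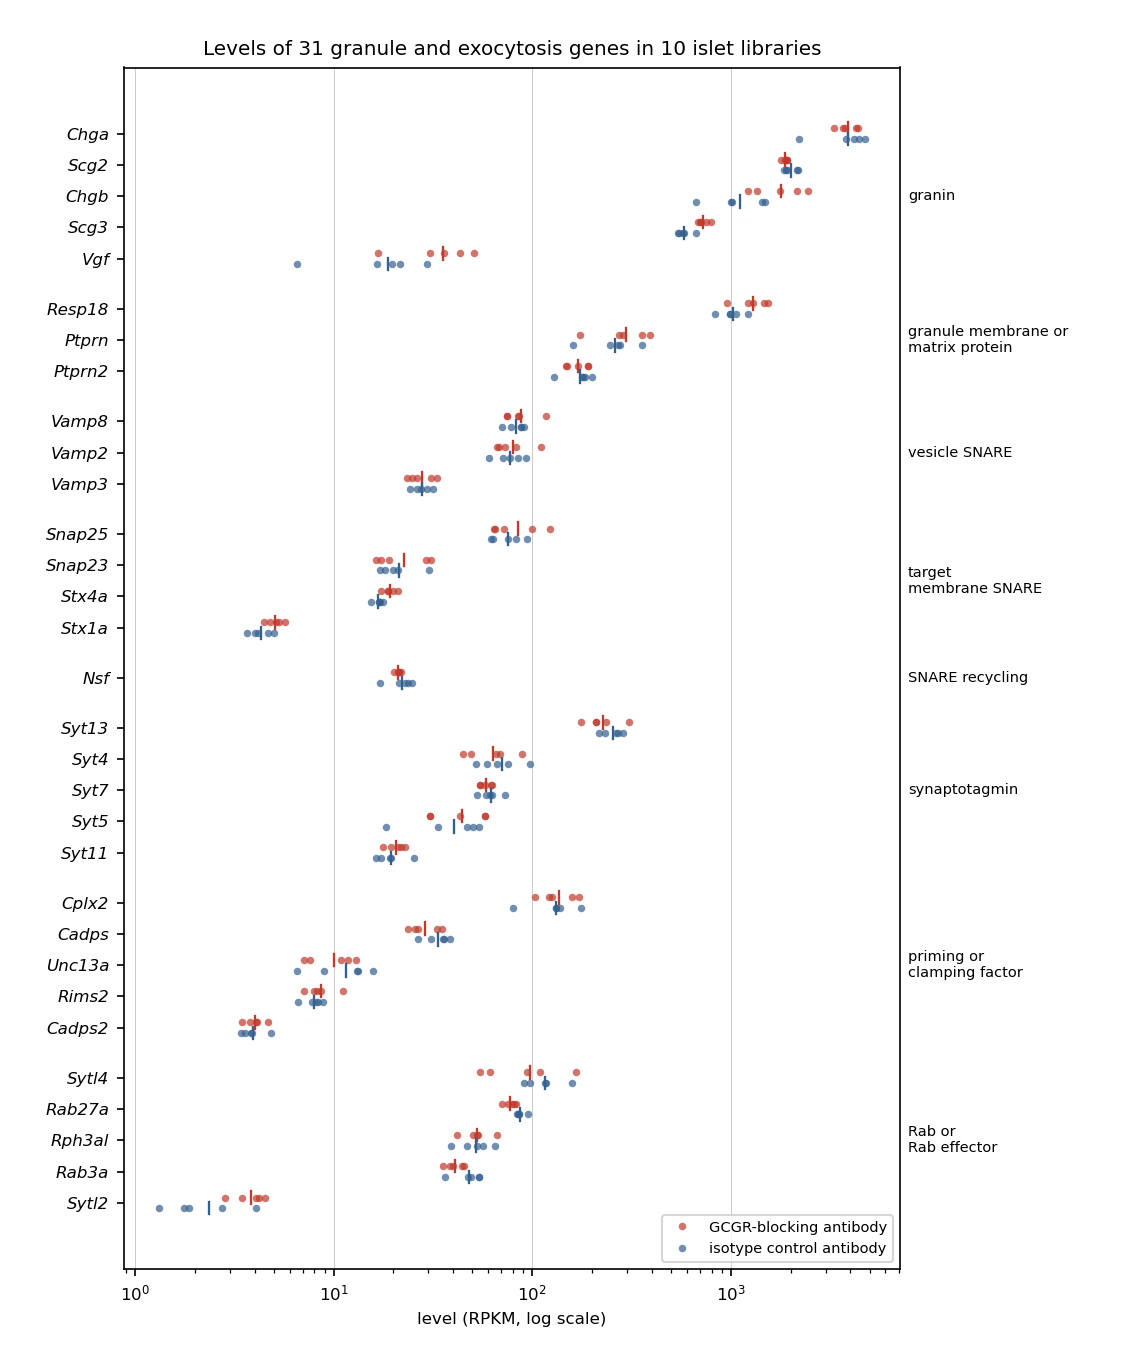
Level of each of the 31 genes in each library (RPKM, log axis), grouped by role; each point is 1 library, the vertical tick is the mean of 5, and the antibody row is above the isotype row. The granins other than Vgf and Resp18 stand to the right of the fusion machinery, most of which lies between 10 and 100 RPKM, and the groups overlap in 29 of 31 genes.

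The granins, acidic proteins that condense in the granule core and help to form it, had log2 fold changes from -0.09 to 0.96 among themselves. Their transcription start regions are shown because the 4 abundant granins, with unlike values between the groups, can be set side by side. Promoter windows of 300 bases were matched to 21 of the 31 genes (24 windows, RefSeq, GRCm38.p6), each running from 250 bases before the transcription start to 50 bases after it. The window of Scg3 belongs to a transcript that starts inside the annotated span of the gene. Capitals mark the cAMP response element core TGACG on either strand. The full palindrome TGACGTCA holds it on both strands, with 2 overlapping matches.
Chga (chr12:102554691-102554990, plus strand): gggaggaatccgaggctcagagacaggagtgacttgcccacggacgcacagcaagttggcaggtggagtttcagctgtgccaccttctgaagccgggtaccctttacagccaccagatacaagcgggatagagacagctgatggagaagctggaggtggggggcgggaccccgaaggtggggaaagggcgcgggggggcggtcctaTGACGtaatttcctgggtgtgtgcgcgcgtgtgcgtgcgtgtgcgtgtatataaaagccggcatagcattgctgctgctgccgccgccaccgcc
Chgb (chr2:132781392-132781691, plus strand): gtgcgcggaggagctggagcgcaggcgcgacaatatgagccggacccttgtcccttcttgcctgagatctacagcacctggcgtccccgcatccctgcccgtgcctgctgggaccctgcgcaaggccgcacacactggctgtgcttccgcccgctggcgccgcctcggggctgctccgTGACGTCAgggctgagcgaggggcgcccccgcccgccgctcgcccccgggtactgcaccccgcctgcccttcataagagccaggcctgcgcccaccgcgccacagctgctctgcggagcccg
Scg2 (chr1:79439977-79440276, minus strand): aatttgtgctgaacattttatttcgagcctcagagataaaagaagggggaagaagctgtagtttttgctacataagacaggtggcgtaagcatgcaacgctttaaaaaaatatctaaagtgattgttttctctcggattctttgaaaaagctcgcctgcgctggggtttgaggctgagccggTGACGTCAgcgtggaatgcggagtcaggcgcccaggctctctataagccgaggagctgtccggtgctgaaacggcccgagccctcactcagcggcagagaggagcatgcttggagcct
Scg3 (chr9:75684007-75684306, minus strand): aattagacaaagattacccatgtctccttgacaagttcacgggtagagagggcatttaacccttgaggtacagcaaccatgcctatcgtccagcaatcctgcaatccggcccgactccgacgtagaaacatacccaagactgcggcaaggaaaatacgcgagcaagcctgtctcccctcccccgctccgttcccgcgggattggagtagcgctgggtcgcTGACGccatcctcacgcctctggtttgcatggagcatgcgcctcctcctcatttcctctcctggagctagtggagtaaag

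The palindrome TGACGTCA was present in Chgb, from position -72, and in Scg2, from position -68, counted from the transcription start. It occurred in 2 of 24 windows of these genes (8.33%) and in 1.79% of all 32851 windows. The shorter TGACG was present in 10 of the 24 windows (41.7%) and in 20.8% of all windows. Chga held it once, at position -44, and Scg3 once, at position -30. Of the granins shown above, the 2 with the palindrome had log2 fold changes of 0.69 (Chgb) and -0.09 (Scg2). No window of Vgf is shown, so nothing is said here of its transcription start region. A match of letters is a description of the window.

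Chga, chromogranin A (Entrez 12652, chromosome 12 from 102554941 to 102565027 in GRCm38.p6), had nearly equal means in the 2 groups. It stood at 3321, 3743, 4270, 4394 and 3674 RPKM in antibody libraries 1 to 5, against 4172, 4447, 4725, 3809 and 2213 RPKM in isotype libraries 6 to 10. The isotype libraries bracketed the antibody libraries, and library 10 was the lowest of all. The means were 3880 ± 444 RPKM in antibody libraries and 3873 ± 988 RPKM in isotype libraries (SD, n = 5 each), a log2 fold change of 0.04 (95% interval -0.43 to 0.52, limma adjusted p = 0.986). Quantile normalization turned the sign, with a log2 fold change of -0.31.

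Chgb, chromogranin B (Entrez 12653, chromosome 2 from 132781642 to 132795079), stood higher in most antibody libraries. Its levels were 1779, 2449, 2145, 1355 and 1217 RPKM under REGN1193, against 669, 1429, 1009, 1480 and 998.6 RPKM under isotype antibody. Antibody libraries 1 to 3 lay above every isotype library, while antibody libraries 4 and 5 lay within the isotype range. The difference in log2 value was 0.69 (SE 0.26, limma adjusted p = 0.586; exact permutation p = 0.0476 for this gene alone).

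Scg2, secretogranin II (Entrez 20254, chromosome 1 from 79434366 to 79440026), was among the least variable of the 31 genes. It stood at 1909, 1911, 1872, 1898 and 1780 RPKM in antibody libraries and at 2190, 1921, 1893, 2153 and 1857 RPKM in isotype libraries. Its values overlapped between groups, and its log2 fold change was -0.09 (95% interval -0.37 to 0.18, limma adjusted p = 0.917). Scg2 and Chga, the most abundant of the 31 genes, thus both had intervals that include 0.

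Scg3, secretogranin III, a granule membrane-bound granin that holds chromogranin A in the granule, did not overlap between groups (Entrez 20255, chromosome 9 from 75643366 to 75685959). It stood at 696, 681, 710, 793 and 747 RPKM under REGN1193, against 540, 579, 571, 665 and 548 RPKM under isotype antibody. The lowest antibody library, at 681 RPKM, was above the highest isotype library, at 665 RPKM. The means were 725 ± 45.2 RPKM in antibody libraries and 581 ± 49.7 RPKM in isotype libraries (SD, n = 5 each), a 1.25-fold difference with a log2 fold change of 0.32 (SE 0.11, 95% interval 0.08 to 0.57). The exact permutation p for this gene alone was 0.00794, the smallest that 5 against 5 libraries can give, while over all genes it did not pass (limma adjusted p = 0.514).

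Vgf, a neuropeptide precursor of the granin family, was the granin with the widest spread. It stood at 30.6, 43.4, 50.9, 35.8 and 16.8 RPKM in antibody libraries, against 6.54, 29.4, 19.7, 21.5 and 16.4 RPKM in isotype libraries. Antibody libraries 1 to 4 lay above every isotype library, and antibody library 5 lay beside the second lowest isotype library. Its log2 fold change of 0.96 was the largest of the 31 genes (SE 0.37, 95% interval 0.14 to 1.77, limma adjusted p = 0.606; exact permutation p = 0.0556). With 1 library left out, the value ran from 0.63 without isotype library 6 to 1.20 without antibody library 5.

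Among the granule membrane and matrix proteins Resp18, a luminal protein of endocrine granules, had the largest difference. It stood at 1221, 1472, 1533, 1288 and 958 RPKM under REGN1193, against 1223, 988, 1061, 995 and 836 RPKM under isotype antibody. The 3 highest values were from antibody libraries, but antibody library 5 was the second lowest of all 10. The difference in log2 value was 0.33 (SE 0.16, limma adjusted p = 0.733). Ptprn and Ptprn2 encode the granule membrane proteins IA-2 and phogrin, autoantigens of human type 1 diabetes and catalytically inactive relatives of tyrosine phosphatases. Ptprn ran from 175 to 391 RPKM in antibody libraries and from 160 to 359 RPKM in isotype libraries, a log2 fold change of 0.17 (SE 0.24). Left-out libraries moved that value, to 0.35 without antibody library 5 and to 0.0036 without isotype library 6. Ptprn2 ran from 148 to 192 RPKM in antibody libraries and from 128 to 199 RPKM in isotype libraries, a log2 fold change of -0.03 (SE 0.14) whose sign turned after median centring and quantile normalization. Ptprn and Resp18 are neighbours on chromosome 1, 7.70 kb apart in GRCm38.p6. Isotype library 6 was the highest isotype library for Resp18 and the lowest for Ptprn.

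The SNARE genes had small differences in both directions. The vesicle SNAREs Vamp2, the main granule synaptobrevin of beta cells, Vamp3 (cellubrevin) and Vamp8 (endobrevin) had log2 fold changes of 0.04, -0.02 and 0.06, with limma adjusted p from 0.957 to 0.991. Vamp2 averaged 80.1 ± 18.3 RPKM under REGN1193 and 77.5 ± 12.6 RPKM under isotype antibody (SD, n = 5 each). Vamp8 averaged 87.6 ± 17.7 RPKM in antibody libraries and 83.0 ± 8.27 RPKM in isotype libraries (SD, n = 5 each). Vamp3 averaged 27.7 ± 4.16 RPKM in antibody libraries and 27.9 ± 2.97 RPKM in isotype libraries (SD, n = 5 each). The sign for Vamp3 was positive after median centring and quantile normalization, so no direction is read from it.

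The target membrane SNAREs all had positive log2 fold changes, from 0.06 to 0.22. Stx4a, the plasma membrane syntaxin 4, stood at 21.0, 18.9, 19.9, 18.7 and 17.4 RPKM in antibody libraries, against 15.5, 16.9, 16.9, 17.1 and 17.7 RPKM in isotype libraries. Antibody library 5 alone lay below the highest isotype library, library 10. The difference in log2 value was 0.19 (SE 0.09, limma adjusted p = 0.725; exact permutation p = 0.0159). Stx1a, syntaxin 1A, stood at 5.31, 4.77, 5.68, 5.11 and 4.47 RPKM in antibody libraries, against 4.03, 4.17, 3.64, 4.99 and 4.69 RPKM in isotype libraries, a log2 fold change of 0.22 (limma SE 0.11, adjusted p = 0.766; exact permutation p = 0.0476). For both syntaxins the antibody libraries lay higher on average with some overlap. Snap25 ran from 64.2 to 122 RPKM under REGN1193 and from 62.3 to 94.5 RPKM under isotype antibody. Its more widely expressed relative Snap23 ran from 16.4 to 30.8 RPKM in antibody libraries and from 17.1 to 30.1 RPKM in isotype libraries. The log2 fold changes were 0.13 for Snap25 (limma adjusted p = 0.931) and 0.06 for Snap23 (limma adjusted p = 0.973). The sign turned in 1 alternative fit for Snap25 and in 4 for Snap23, so no direction is read from either. Nsf, which recycles SNAREs, stood at 21.2 ± 0.659 RPKM under REGN1193 and 22.0 ± 2.92 RPKM under isotype antibody (SD, n = 5 each; log2 fold change -0.04, 95% interval -0.28 to 0.19).

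Of the synaptotagmins 2 had positive and 3 negative values, all between -0.17 and 0.16 on the log2 fold change scale, with limma adjusted p of at least 0.867. Syt7, a high-affinity calcium sensor of islet exocytosis, averaged 58.4 ± 3.92 RPKM in antibody libraries and 61.7 ± 7.56 RPKM in isotype libraries (SD, n = 5 each; 95% interval of the log2 fold change -0.31 to 0.16). Syt13, which does not bind calcium, was the most abundant at 228 ± 49.6 RPKM in antibody libraries and 254 ± 29.1 RPKM in isotype libraries (SD, n = 5 each). Syt5 was the most variable synaptotagmin, from 30.6 to 58.0 RPKM under REGN1193 and from 18.4 to 53.7 RPKM under isotype antibody. Syt4 averaged 63.5 RPKM under REGN1193 and 70.1 RPKM under isotype antibody, and Syt11 averaged 20.6 RPKM in antibody libraries and 19.6 RPKM in isotype libraries.

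Priming and clamping factors showed no call either. Cadps, the priming factor CAPS1, stood at 33.2, 23.7, 25.8, 35.2 and 26.7 RPKM under REGN1193, against 38.6, 30.9, 26.5, 36.0 and 35.5 RPKM under isotype antibody. The groups overlapped over most of their range (limma log2 fold change -0.21, SE 0.14, adjusted p = 0.836). Its relative Cadps2 averaged 4.02 RPKM in antibody libraries and 3.91 RPKM in isotype libraries. Cplx2, a complexin that clamps and promotes SNARE fusion, ran from 103 to 173 RPKM in antibody libraries and from 79.95 to 177 RPKM in isotype libraries. Unc13a, the priming factor Munc13-1, ran from 7.12 to 12.95 RPKM in antibody libraries and from 6.55 to 15.7 RPKM in isotype libraries. Rims2, a scaffold that binds Rab3, ran from 7.13 to 11.2 RPKM under REGN1193 and from 6.63 to 8.79 RPKM under isotype antibody.

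Among the Rab genes Rab27a, a GTPase that docks granules, was lower in every antibody library. It stood at 80.9, 70.8, 75.5, 82.6 and 78.7 RPKM under REGN1193, against 86.1, 83.9, 84.9, 95.05 and 85.6 RPKM under isotype antibody (Entrez 11891, chromosome 9 from 73044810 to 73097623). The groups did not overlap, with the highest antibody library at 82.6 RPKM and the lowest isotype library at 83.9 RPKM. The difference was small, a log2 fold change of -0.16 (SE 0.09, 95% interval -0.36 to 0.03, limma adjusted p = 0.766; exact permutation p = 0.00794). Rab3a, a Rab of granules and synaptic vesicles, stood at 45.15, 40.0, 44.4, 38.6 and 35.65 RPKM in antibody libraries, against 36.3, 54.2, 49.1, 54.1 and 47.4 RPKM in isotype libraries. All antibody libraries lay below isotype libraries 7 to 10, and isotype library 6 lay among them (limma log2 fold change -0.23, SE 0.13, adjusted p = 0.768).

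Of the Rab effectors, Sytl2 had a positive and Sytl4 a negative log2 fold change. Sytl2 encodes a synaptotagmin-like protein, Slp2-a, that binds Rab27a and has been described in alpha cells. It stood at 4.07, 4.19, 3.47, 2.85 and 4.49 RPKM in antibody libraries, against 1.32, 1.87, 1.76, 2.74 and 4.07 RPKM in isotype libraries. Isotype library 10 lay among the antibody libraries and the other 4 isotype libraries lay below all of them. The log2 fold change of 0.66 (SE 0.23, exact permutation p = 0.0317) had the smallest adjusted p of the 31 genes, 0.495 by limma, and without isotype library 10 it was 0.85 (limma adjusted p = 0.124; over the alternatives, from 0.0697 to 0.855). Sytl4, granuphilin, a Rab27a effector known for docking insulin granules, stood at 97.3 ± 45.1 RPKM under REGN1193 and 116 ± 26.6 RPKM under isotype antibody (SD, n = 5 each; limma log2 fold change -0.35, SE 0.28, adjusted p = 0.863). Rph3al (Noc2) averaged 52.9 ± 8.74 RPKM in antibody libraries and 51.9 ± 9.71 RPKM in isotype libraries (SD, n = 5 each).

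Groups without overlap were found in 2 of the 31 genes (6.45%), beside 1.99% of all tested genes. Scg3 was the 1 gene above, beside 1.14% of all genes, and Rab27a the 1 gene below, beside 0.84%. Rab27a overlapped in each other scaling tried. After median centring the genes without overlap were Scg3, Stx1a and Stx4a, all higher, beside 1.56% of all tested genes above and 0.409% below. After quantile normalization they were Stx1a and Stx4a, both higher, beside 1.33% above and 0.454% below. After rescaling without the 10 genes of highest mean level 0 of the 31 were apart, beside 2.04% of all tested genes in either direction. The sign of the log2 fold change of Scg3 and of Rab27a was the same in all of these scalings. Its size was not, and for Rab27a it was -0.16 without scaling and -0.09 after median centring. As a share of the summed RPKM, Scg3 took 0.0927% ± 0.00814 under REGN1193 and 0.0720% ± 0.00956 under isotype antibody (SD, n = 5 each, exact permutation p = 0.0238). Its groups overlapped on this scale, with the lowest antibody library at 0.0840% and the highest isotype library at 0.0858%. Rab27a took 0.00995% ± 0.00106 under REGN1193 and 0.0108% ± 0.00125 under isotype antibody (SD, n = 5 each, exact permutation p = 0.278). On the scale of shares 0 of the 31 genes were apart, beside 1.7% of all tested genes in either direction.

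Apart from the pseudocount, ratios within a library do not depend on how the library is scaled. For 10 pairs of related genes the log2 ratio was compared between groups by a two-sided exact permutation test, with Benjamini-Hochberg adjustment over the 10 pairs. With 5 against 5 libraries, 1 fully separated pair alone can reach an adjusted p no lower than 0.0794, so it could not pass 0.05. The ratio of Scg2 to Scg3 stood at that limit, and none of the 10 pairs passed. Its log2 value was 1.45, 1.49, 1.40, 1.26 and 1.25 in antibody libraries, against 2.02, 1.73, 1.73, 1.69 and 1.76 in isotype libraries. Every antibody library was below every isotype library, with a difference of -0.42 (exact permutation p = 0.00794, adjusted p = 0.0794), so that Scg2 was 2.59 times Scg3 under REGN1193 and 3.45 times under isotype antibody. The log2 ratio of Chgb to Chga was higher by 0.64 (exact permutation p = 0.111, adjusted p = 0.370) and that of Sytl2 to Sytl4 by 1.005 (exact permutation p = 0.0714, adjusted p = 0.357). The other 7 pairs differed by between -0.19 and 0.25, with exact permutation adjusted p of at least 0.397. The ratios also describe which relative had the higher RPKM, which again rests on the transcript lengths used. Vamp8 and Vamp2 were nearly even at 1.09 to 1 over the 10 libraries. Stx4a was 3.58 times Stx1a, Rab27a was 1.86 times Rab3a, and each was the higher in 10 of 10 libraries. Snap23 was 0.277 of Snap25, Vamp3 0.360 of Vamp2 and Cadps2 0.142 of Cadps, below in all 10 libraries.

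**Figure D3:**
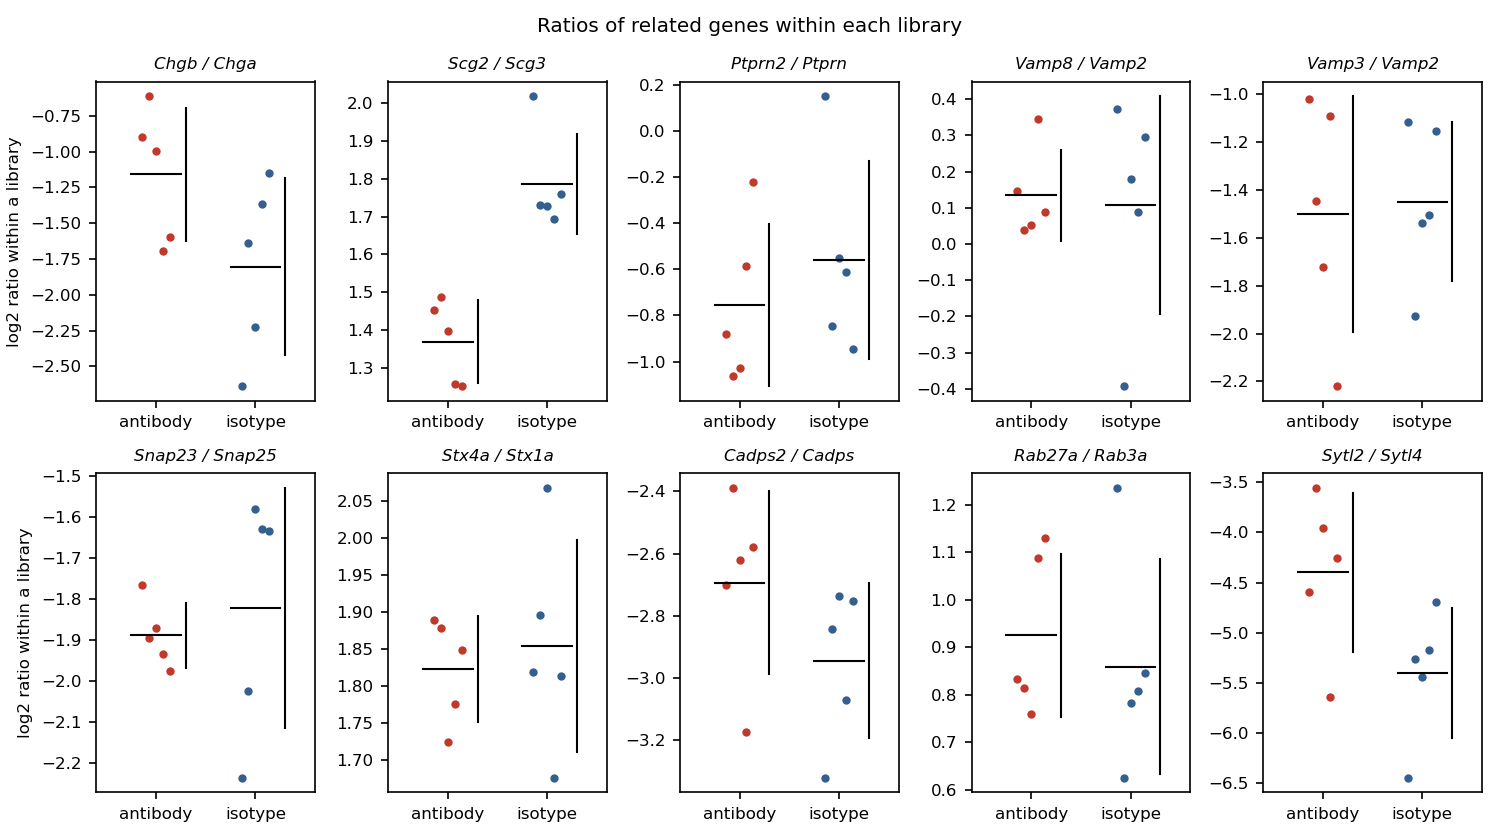
Log2 ratio of 2 related genes within each library for 10 pairs (vertical axes, log2 units, each panel on its own scale). Points are libraries, the horizontal line is the group mean and the vertical bar the SD of 5 libraries; the groups are apart for Scg2 over Scg3 (1.25 to 1.49 under REGN1193, 1.69 to 2.02 under isotype antibody) and overlap in the other 9 panels.

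The genes did not spread alike within a group. The residual SD of log2 values was 0.08 for Rab27a and for Scg2 and 0.09 for Stx4a, while it was 0.51 for Sytl4, 0.55 for Syt5 and 0.70 for Vgf. The median over the 31 genes was 0.24, beside 0.25 over all tested genes. In the antibody group library 5 was the lowest for 13 of the 31 genes, 41.9% beside 35.8% of all tested genes. These included Chgb, Vgf, Ptprn, Resp18, Stx4a and Rab3a. In the isotype group library 6 was the lowest for 14 genes, 45.2% beside 34.7% of all tested genes, with Chgb, Vgf, Ptprn, Stx4a and Rab3a again among them. For other genes the same libraries stood at the top: library 5 was the highest antibody library for Snap25, Snap23, Vamp2 and Vamp8, and library 6 the highest isotype library for Sytl4 and Cplx2. Beta cell markers summed to 199314 RPKM in library 5, the lowest of the antibody group, and to 472840 RPKM in library 6, the highest of the isotype group. Ductal marker sums were the lowest of their group in both, at 389 RPKM in library 5 and 433 RPKM in library 6. Delta cell sums were 3703 RPKM in library 5, the lowest antibody library, and 2353 RPKM in library 6, above library 10 alone. Acinar sums were 13734 RPKM in library 5, the highest antibody library, and 12830 RPKM in library 6, below library 8 alone. The part of cell composition in this spread was not tested.

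**Figure D4:**
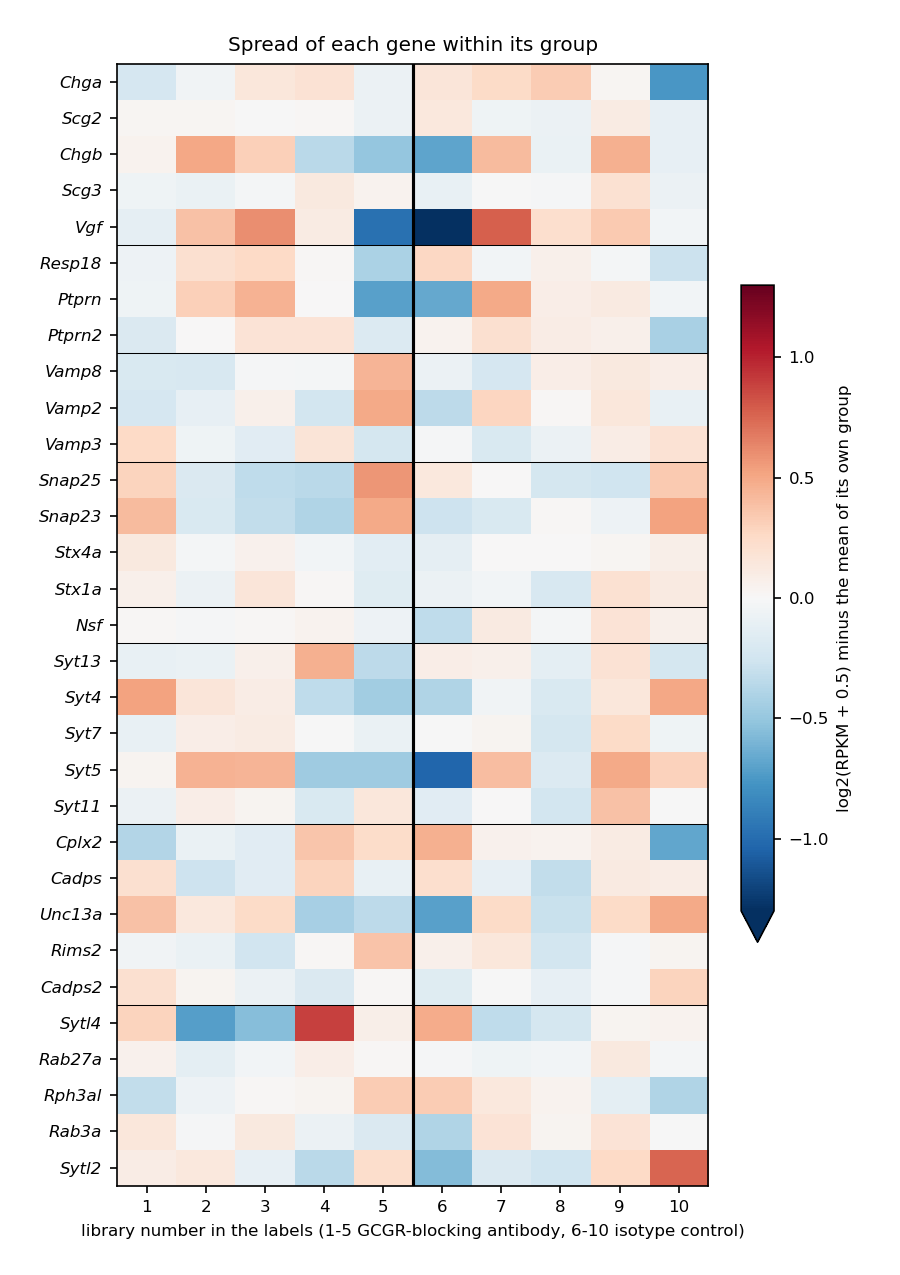
Deviation of each gene from the mean of its own group in each library (colour, log2(RPKM + 0.5) units), antibody libraries left of the line and isotype libraries right of it. Vgf, Ptprn, Syt5 and Chgb are low in libraries 5 and 6, and the rows of Scg2, Stx4a and Rab27a are nearly blank.

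Other genes of the granule and of exocytosis gave no call either. Of 93 listed genes 92 were matched by symbol, and 79 of these passed the filter on low values. Vamp7 was not analysed here. None was called higher or lower over all genes, and at an unadjusted limma p under 0.05 6 were higher (7.59%, beside 2.84% of all tested genes) and 2 lower (2.53%, beside 4.18%). Positive log2 fold changes occurred in 25 and negative ones in 54, and the 31.6% positive is near the 33.5% of all tested genes. The median was -0.10, beside -0.07 for all tested genes. The smallest p belonged to Syt16, an atypical synaptotagmin, at 2.26 ± 0.375 RPKM under REGN1193 and 1.20 ± 0.312 RPKM under isotype antibody (SD, n = 5 each; limma log2 fold change 0.71, SE 0.15, adjusted p = 0.119). Syt1, the calcium sensor of fast synaptic release, averaged 2.73 ± 0.529 RPKM in antibody libraries and 1.73 ± 0.186 RPKM in isotype libraries (SD, n = 5 each; limma log2 fold change 0.52, SE 0.14, adjusted p = 0.227). Next by limma p were the exocyst subunit Exoc6 and the GTPase Rab3c, with log2 fold changes of 0.30 (SE 0.10) and 0.31 (SE 0.13). In these 4 of the 79 genes (5.06%, beside 1.14% of all tested genes) every antibody library was above every isotype library, and 0 of the 79 lay below without overlap, beside 0.84%. Syt3, another synaptotagmin, had -0.36 (SE 0.15) and Sv2b, a vesicle glycoprotein, 0.30 (SE 0.12), with limma adjusted p up to 0.639.

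As a share of the summed RPKM, the 31 genes made up 1.44% ± 0.0451 in antibody libraries and 1.27% ± 0.111 in isotype libraries (SD, n = 5 each). The 5 granins alone made up 1.06% ± 0.0289 in antibody libraries and 0.933% ± 0.103 in isotype libraries. Without Resp18 and the 4 granins other than Vgf, the share was 0.220% ± 0.00886 in antibody libraries and 0.214% ± 0.0233 in isotype libraries. Most of the difference in the summed share thus lay in those few abundant genes, but they did not move together. Chgb took 0.227% in antibody libraries and 0.139% in isotype libraries, and Scg3 0.0927% and 0.0720%. Chga took 0.494% and 0.472%, and Scg2 was lower in antibody libraries, at 0.2395% and 0.2478%. Insulin transcripts took 33.0% ± 5.25 under REGN1193 and 44.6% ± 4.83 under isotype antibody. Such shares sum to a fixed whole and are not independent of each other.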

How the data were processed

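RNA from mouse islets was measured in 10 polyA libraries made with the Nextera XT kit, per the labels' protocols. The deposited values are RPKM, in 1 table that holds all libraries. The submitters' processing notes name CASAVA 1.8.2, FastQC, GRCm38 and mm10 with no roles; for aligner, counting program and annotation, nothing is given in the sources used here. The kit does not mark strand, so reads of overlapping antisense genes cannot be told apart. RPKM removes most of a depth difference, but a few very abundant transcripts move all other values.

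RPKM values were used as log2(RPKM + 0.5). The test took the 13450 of 24475 genes whose mean reached 0.5 RPKM. The comparison of groups used limma 3.58.1 under R 4.3.3, with moderated variances that follow a trend on level, and a Benjamini-Hochberg threshold of 0.05 across all tested genes. The step was tested on 10 simulated sets of 13450 genes, 200 of them changed. It called 35.1% of 1.5-fold changes in the right direction, 75.7% of 2-fold and 94.7% of 4-fold changes. Of all calls, 4.61% fell on unchanged genes. SE and 95% intervals are limma's moderated ones. Because of the pseudocount, differences of genes near 0.5 RPKM come out too small. Single values were also compared by a two-sided exact permutation test over 252 assignments, whose smallest p is 0.00794. These single-gene p-values are not adjusted. Depth was estimated from the steps of low values of 15621 genes that have 1 transcript length among their RefSeq entries in the GENCODE M21 release. The low values used numbered 1016 to 1228 per library. At the depth that matched them best, between 71.9% and 79.2% lay within 0.1 of a whole read. That was too few for read counts to be recovered, so no count model was fitted. No pair of libraries held identical values. Coordinates and promoters are from RefSeq, GRCm38.p6. Permutation tests and plots used Python 3.11.15, scipy 1.17.1, numpy 2.4.6, matplotlib 3.10.9 and pandas 2.3.3.

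The 31 genes, the 10 pairs and the lists of other genes were chosen with earlier results of these data known. Values of every library are given for granins and for the 10 genes of smallest limma p; of the other exocytosis genes, the 6 of smallest p are named. Residual spread, library extremes and other scalings of overlap were looked at after the values were seen. The fit was repeated leaving out each library, with array weights, with no variance trend, with the acinar level as covariate, with 3 other scalings (quantile, median centring, rescaling without the 10 genes of highest mean level), with pseudocounts of 0.1 and 1, and with the filter dropped or set to a mean of 5 RPKM. After the data were seen, a ductal covariate and the omission of libraries 5 and 10 together were added.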

Additional observations from a re-analysis of the deposited data

Results flagged for a closer look

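In 4 of 62 groups of 5 libraries (31 genes, 2 groups each), 1 library stood far from the other 4, its gap to the nearest being more than 0.71 of the whole range on the log2 scale. Chance flags about 1 in 20 groups, so a number near this would be met without any cause. Chga was at 2213 RPKM in isotype library 10, below the other isotype libraries (gap 0.716 of the range). Ptprn2 was at 128 RPKM in isotype library 10, again the lowest (gap 0.749). Scg2 was at 1780 RPKM in antibody library 5, the lowest of a narrow group (gap 0.713). Rab27a was at 95.05 RPKM in isotype library 9, the highest of its group (gap 0.790).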

How the results depend on the processing

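No paired analysis was possible because library numbers run from 1 to 5 under REGN1193 and from 6 to 10 under isotype antibody, so no number occurs in both groups. In all 22 alternatives the number of the 31 genes called was 0 in each direction. The smallest limma adjusted p among them lay between 0.0623 and 0.785 over the alternatives, with 0.0623 for Resp18 with array weights, where 10 of the 31 had an unadjusted p under 0.05, beside 14.7% of all genes in that fit. Their median log2 fold change (0.04) moved by less than the SD of 0.09 between libraries in every alternative, though its sign was not fixed: it was 0.12 after median centring, 0.10 after quantile normalization, -0.03 under array weights and -0.0018 to 0.09 with libraries left out, lowest without isotype library 6. Over all genes, the number called higher (53) was 23 with a minimum mean of 5 RPKM, 121 with array weights and 31 to 50 with libraries left out (32 without antibody library 2 or 3, 31 without isotype library 9). The number called lower (2) was 0 with a minimum mean of 5 RPKM, 5 with quantile normalization, 1 with no variance trend, 61 with array weights, 5 with the acinar covariate, 11 with the ductal covariate and 0 to 20 with libraries left out (0 without antibody library 1, 20 without isotype library 6). The sign of the log2 fold change was the same in every alternative for 15 of the 31 genes, Chgb, Scg3, Vgf, Sytl2, Resp18, Stx1a, Stx4a, Rab27a and Rab3a among them. It turned in at least 1 alternative for the other 16. With array weights it was -0.0454 for Chga, -0.11 for Vamp2, 0.0040 for Vamp3, -0.0378 for Snap23, -0.0592 for Cplx2, -0.0276 for Rims2 and -0.0402 for Rph3al, and rescaling without the 10 most abundant genes gave -0.0012 for Rph3al. With median centring it was 0.0515 for Ptprn2, 0.0614 for Vamp3, 0.0355 for Nsf and 0.0024 for Syt7. With quantile normalization it was -0.31 for Chga, 0.0123 for Ptprn2, 0.0455 for Vamp3 and 0.0220 for Nsf. The acinar covariate gave -0.0811 for Syt5. With 1 library left out, or libraries 5 and 10 together, it ran from -0.15 to 0.13 for Chga, -0.13 to 0.0271 for Ptprn2, -0.11 to 0.11 for Vamp2, -0.0815 to 0.0895 for Vamp3, -0.0498 to 0.11 for Vamp8, -0.0147 to 0.22 for Snap25, -0.0607 to 0.19 for Snap23, -0.12 to 0.0021 for Nsf, -0.28 to 0.0871 for Syt4, -0.10 to 0.35 for Syt5, -0.16 to 0.19 for Cplx2, -0.34 to 0.0478 for Unc13a, -0.0124 to 0.11 for Cadps2 and -0.15 to 0.12 for Rph3al. The differences in log2 ratio ran from -0.10 to 0.0917 for Vamp8 over Vamp2, -0.17 to 0.13 for Vamp3 over Vamp2 and -0.0753 to 0.0224 for Stx4a over Stx1a, with 1 library left out. The cause of these turns was not tested. Neither pseudocount changed a sign or a call of the 31 genes. At 12.3 to 17.9 megareads, counting error weighs most on the genes of lowest level, Sytl2, Cadps2 and Stx1a, and the minimum mean of 5 RPKM left these 3 untested.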
